A study of Sorghum bicolor with 14 samples.

Results

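Dehydrin DHN1 (Sobic.009G116700) and the proline synthesis enzyme P5CS (pyrroline-carboxylate synthase, Sobic.003G356000) are described here in the stem of sorghum, as a pair of genes known from work on water deficit. They were chosen by annotation ID and make up 2 of the 34129 different IDs in the files. Each ID stood alone on 1 locus in the development table and on 1 locus in the drought table. The files hold IDs without gene names, and 0 of the 34129 IDs matched the RefSeq table of symbols used here, so both names come with the selection and were not checked against a sequence.

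The RNA came from the middle internode of Sorghum bicolor, all of it from the grain variety M35-1. The drought groups grew in pots of 1 plant each and received no water from the flag leaf stage on. They were harvested at booting, at soil moisture readings of about 13% (D1), 7% (D2) or 2% (D3). The field groups were watered plants, taken before flowering at floral initiation or at booting (while the flag leaf sheath still encloses the panicle) and during grain filling at the milky stage or the soft dough stage. Each group had 2 libraries, and the labels do not say how many plants went into one. No watered pot group was analysed here, so D1 is the mildest reading and not an unstressed control.

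Dehydrins are very hydrophilic proteins that accumulate in plant cells losing water, where they are thought to protect membranes and other proteins. P5CS turns glutamate into the precursor of proline and is regarded as the controlling step of that route; proline is a soluble compound that many plants build up when water is short. Genes of both kinds are known to respond to abscisic acid, the hormone that signals water deficit, and dehydrins are also made in maturing seeds. Sorghum, like other grasses, carries further dehydrin genes and more than one P5CS gene. The files do not name those copies, and they were not analysed here; fragments divided between near-identical copies would make a value uncertain.

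The authors deposited FPKM values, in which fragment counts are divided by transcript length and by the number of mapped fragments, with 1 pooled value per group. Without values per library, no difference below was checked against replicates, and neither an SD nor a p-value can be given. Differences are in log2(FPKM + 1), a scale that understates changes of low values. A locus whose higher value of a comparison reached 1 FPKM counted as measured, and was called higher or lower at a difference of 1 log2 unit or more. These are bulk samples, in which fewer cells of a type and less RNA per cell cannot be told apart. The stem identity of the tissue was not checked with marker genes, since the files name none.

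DHN1 lies on chromosome 9 at 45915614 to 45916682 as printed in the files, a range of 1069 bp, and P5CS on chromosome 3 at 67427643 to 67434548, a range of 6906 bp. The sources used here state neither the genome build nor the exons within these ranges. No other locus overlapped either range in either table.

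DHN1 was among the most abundant transcripts of the drying plants and was lower the drier the soil. It had 685 FPKM at D1, 430 FPKM at D2 and 180 FPKM at D3. Among the 32726 loci of the drought table it ranked 106th from the highest at D1, 191st at D2 and 682nd at D3. Each drier reading had the lower value.

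The lower value at D2 than at D1, a log2 difference of -0.67, stayed under 1 log2 unit and was not called. Of 16865 measured loci, 4.92% were called lower in that comparison. D3 against D2 gave -1.25, and DHN1 was called lower, as were 5.12% of 16739 measured loci. Over the whole drying, D3 against D1, the difference was -1.92. This was the 341st most negative of 17045 measured loci, of which 8.1% were called lower. Among the 1564 loci that reached 100 FPKM at D1 or D3, a level that DHN1 shares, the share called lower was 10.6%. Lower values at each step over 1 log2 unit or more in all, the course DHN1 showed, were seen at 1018 of 17207 loci measured in the drought table (5.92%).

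P5CS took another course, with its highest value at the middle reading. It had 155 FPKM at D1, 398 FPKM at D2 and 57.8 FPKM at D3. Its rank among the 32726 loci was 819th from the highest at D1, 219th at D2 and 2316th at D3. D2 was the highest column and D3 the lowest, and D1 lay between them, more than 1 log2 unit from each.

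D2 against D1 gave a log2 difference of 1.35 for P5CS, the 85th most positive of 16865 measured loci. It was called higher, in a comparison where 1.19% of loci were called higher. Among the 1480 loci at 100 FPKM or more at D1 or D2, 0.878% were called higher. D3 against D2 gave -2.76, the 43rd most negative of 16739 measured loci, against a background of 5.12% called lower. D3 against D1 gave -1.41, the 752nd most negative of 17045 measured loci, also called lower, beside the 8.1% of loci called lower. Among the 1564 loci at 100 FPKM or more at D1 or D3, 10.6% were called lower. P5CS was one of 101 loci with D2 at least 1 log2 unit above both D1 and D3, out of 17207 measured (0.587%). The high D2 value enters 2 of these 3 differences, so they are not separate observations. The pattern with D2 above both matches the course of P5CS itself, so its share is a description only.

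In both genes, D3 lay below D1 and below D2 by 1 log2 unit or more. That course was seen at 573 of the 17207 measured loci (3.33%). At D2 against D1, DHN1 was lower by less than the threshold and P5CS was called higher. The ratio of DHN1 to P5CS within one column does not change with the scaling of that column. It was 4.42 at D1, 1.08 at D2 and 3.12 at D3. Both genes thus had nearly the same FPKM at D2, while DHN1 was the more abundant by some multiple at D1 and D3.

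**Figure D1:**
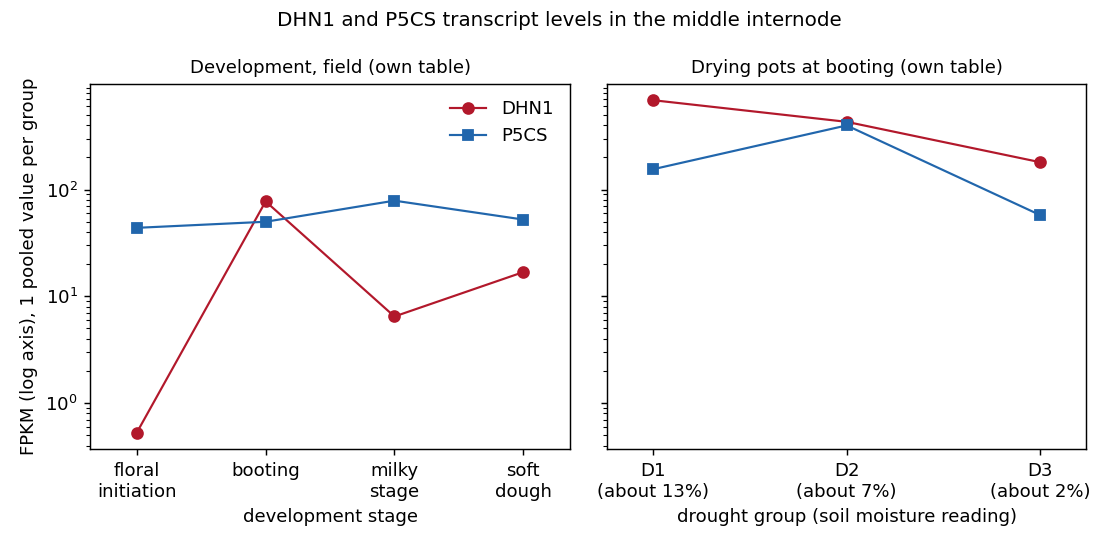
FPKM of DHN1 (circles) and P5CS (squares) on a log axis, by development stage in the field (left) and by drought group with its soil moisture reading (right), 1 pooled value per group and no error bars; the lines join the values of one gene within one separately normalized table. DHN1 stood at 685, 430 and 180 FPKM at D1, D2 and D3, and P5CS peaked at 398 FPKM at D2, whereas in the field DHN1 ranged from 0.529 to 77.4 FPKM and P5CS from 43.8 to 78.6 FPKM.

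Over development in the field, DHN1 spanned a wider range than 99.7% of the measured loci. Its FPKM was 0.529 at floral initiation, 77.4 at booting, 6.47 at the milky stage and 16.8 at the soft dough stage. Booting was the single high stage and floral initiation the single low one. The span from lowest to highest was 5.68 log2 units, the 60th widest of 19250 loci measured over the stages, whose median span was 0.95. In ranks among 34755 loci, DHN1 stood 18461st from the highest at floral initiation, 1790th at booting, 10776th at the milky stage and 6633rd at the soft dough stage.

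Booting against floral initiation gave DHN1 a log2 difference of 5.68. This was the 9th most positive of 17889 measured loci, in a comparison where 5.6% were called higher. Milky stage against booting gave -3.39, called lower as were 2554 of 18209 measured loci (14.0%). Soft dough against milky stage gave 1.26, called higher as were 7.55% of 17947 loci. At a pseudocount of 5 this last difference was 0.93 and was no longer called. Soft dough against floral initiation gave 3.54, the 125th most positive of 18568 loci, with a background of 14.7% called higher. It ran from 1.98 at a pseudocount of 5 to 4.75 at one of 0.1, called higher at both.

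Few loci shared the landmarks of this course, but the landmarks were set to match it, so their shares are a description only. Booting lay at least 1 log2 unit above every other stage at 332 of the 19250 measured loci (1.72%), DHN1 among them. Floral initiation lay at least 1 log2 unit below every other stage at 231 loci (1.2%), again with DHN1. The low value at floral initiation rests on little signal. Multiplied by locus length, the lowest FPKM values above 0 in that column (their 1st percentile, in loci no longer than 3000 bp) give a smallest step of signal, and DHN1 stood at 38.6 such steps there. Should a step be 1 fragment, that is the number of fragments behind the value, over a printed range that may include an intron. The last digit of the library titles is 1 in the drought groups and at floral initiation, and 2 at the other 3 stages. What the digit marks is not stated, and for floral initiation against the other stages the digit and the stage cannot be told apart.

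P5CS varied by less than 1 log2 unit over the same stages. Its FPKM was 43.8 at floral initiation, 49.9 at booting, 78.6 at the milky stage and 52.3 at the soft dough stage. Milky stage was the highest of these close values. The span of 0.83 log2 units was smaller than the median span of 0.95, and 41.9% of the 19250 measured loci had a smaller one. A span of 1 log2 unit or more was seen at 47.2% of them.

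No comparison of stages was called for P5CS. The log2 differences were 0.18 for booting against floral initiation, 0.65 for milky stage against booting, -0.58 for soft dough against milky stage and 0.25 for soft dough against floral initiation. The median over all measured loci lay between -0.02 and 0.03 in these comparisons. Rescaling the columns to the same sum moved the median of booting against floral initiation by -0.14, and the P5CS difference there became 0.03. With 1 value per stage, the order of the 4 stages is not established for this gene.

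**Figure D2:**
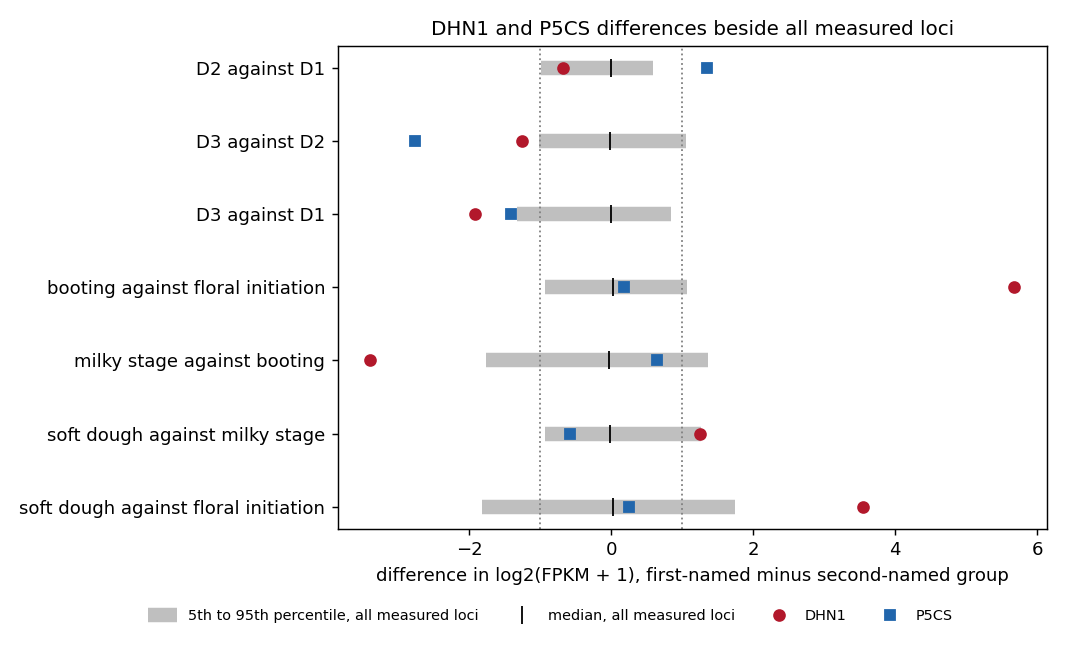
Difference in log2(FPKM + 1) of DHN1 (circles) and P5CS (squares) in 7 comparisons, first-named minus second-named group; grey bars span the 5th to the 95th percentile of all measured loci, ticks mark their median and dotted lines the call threshold of 1 log2 unit. DHN1 lies far outside the grey bar for booting against floral initiation (5.68) and milky stage against booting (-3.39), and P5CS for D3 against D2 (-2.76), while P5CS stays inside it in all 4 comparisons of stages.

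The ratio of DHN1 to P5CS over the stages was 0.0121 at floral initiation, 1.55 at booting, 0.0823 at the milky stage and 0.322 at the soft dough stage. DHN1 therefore exceeded P5CS at booting alone in the field. In the drought columns it did so at D1 and D3, while at D2 the values were nearly the same (ratio 1.08). With P5CS nearly level over the stages, the ratio followed DHN1 there. In the drought columns both genes moved it.

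**Figure D3:**
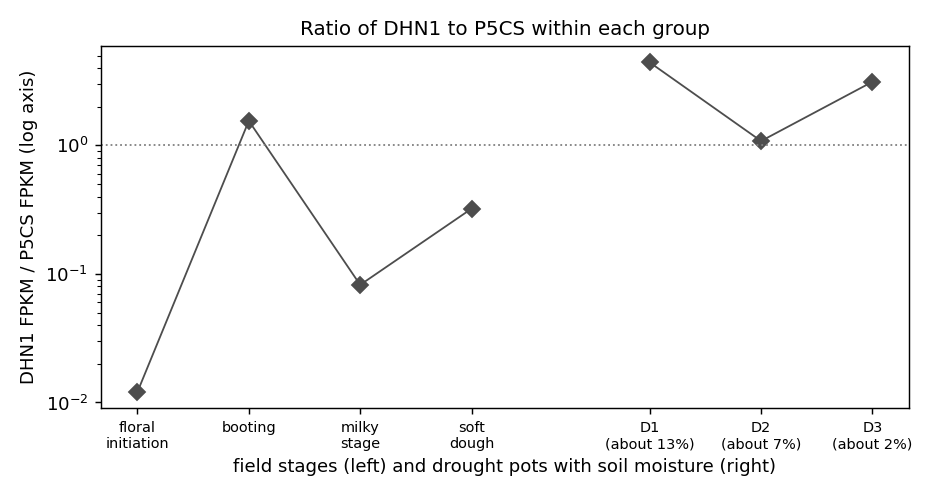
Ratio of DHN1 FPKM to P5CS FPKM within each group, on a log axis, for the field stages (left) and the drought groups with their soil moisture reading (right), 1 value per group; the dotted line marks equal FPKM. The ratio lay above 1 at booting (1.55), D1 (4.42), D2 (1.08) and D3 (3.12), and below 1 in the other 3 groups, with its lowest value, 0.0121, at floral initiation.

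Drought and field columns come from separately normalized tables, so their levels are set side by side without a difference. DHN1 had 685, 430 and 180 FPKM at D1, D2 and D3, and 77.4 FPKM in field plants at booting, the same stage. Every drought column thus stood above every field column in the files as deposited. From the highest, the order was D1, D2, D3, booting, soft dough, milky stage and floral initiation. P5CS had 155, 398 and 57.8 FPKM at D1, D2 and D3, and 49.9 FPKM in field plants at booting. Its D1 and D2 values lay above all field stages. Its D3 value, at about 2% soil moisture, lay inside the field range of 43.8 to 78.6 FPKM. From the highest, the order was D2, D1, milky stage, D3, soft dough, booting and floral initiation. The last 4 of these lay between 57.8 and 43.8 FPKM, and no spread over samples is at hand to separate them.

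A common scaling, with median-of-ratios size factors from 9847 loci that had the same ID and range in both tables and over 1 FPKM in every column, was added after seeing the data. The factors ran from 0.943 at floral initiation to 1.05 at D3. DHN1 then had 172 at D3 and 79.9 at booting, in rescaled FPKM. P5CS had 55.1 at D3, and 53.7 at soft dough and 51.5 at booting. Both orders were as before. Growth in pots, withheld water and the separate tables cannot be told apart in any of these levels. The last digit of the library titles also differs between the drought groups and field booting, milky stage and soft dough. For those levels it cannot be told apart from the other factors either.

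The surroundings of the 2 genes differed. Within 50 kb of DHN1 the tables listed 5 other loci each, none above 1.72 FPKM in a field stage or 1.13 FPKM in a drought group. In the drought comparisons 1 of these neighbours was measured and 0 were called. Of all measured loci, 1.19% to 5.51% were called higher there and 4.92% to 8.1% lower, so 1 uncalled locus near the 1 FPKM limit says little. At soft dough, 1 of 2 measured neighbours was called higher both against milky stage and against floral initiation, beside 7.55% and 14.7% of all measured loci. DHN1 was called higher in both. At milky stage against booting, where DHN1 was called lower, the 1 measured neighbour had a log2 difference of 0.43 and was not called. Of all measured loci, 10% were called higher there and 14.0% lower. For booting against floral initiation, 0 neighbours of DHN1 were measured. Around P5CS, 12 other loci were listed in the drought table, of which up to 11 were measured in a comparison. At D2 against D1, where P5CS was called higher, 0 of 10 measured neighbours were called higher and 1 was called lower, beside 1.19% and 4.92% of all measured loci. At D3 against D2, 1 of 11 was called higher and 1 lower, beside 5.51% and 5.12% of all measured loci. At D3 against D1, 1 of 11 was called higher and 2 lower, beside 3.5% and 8.1%. The development table listed 13 other loci around P5CS. Booting against floral initiation had 0 of 10 measured neighbours called, beside 5.6% of all measured loci called higher and 4.14% called lower. Milky stage against booting had 2 of 12 higher and 1 lower, beside 10% and 14.0%. Soft dough against milky stage had 1 of 11 higher and 1 lower, beside 7.55% and 4.27%. Soft dough against floral initiation had 4 of 12 higher and 1 lower, beside 14.7% and 14.0%. P5CS was not called in any of these 4 comparisons.

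The loci whose profile was most like each gene were ranked by Pearson r of log2(FPKM + 1) over the 7 columns, among 7581 other loci with 1 ID in both tables, at least 10 FPKM in a column and a span of at least 1 log2 unit. The 7 points share 2 tables with separate scaling, so r also reflects the step between drought and field columns. With the columns centred within each table instead, 0 of the 5 loci most like DHN1 and 1 of the 5 most like P5CS were again among the first 5. None of the loci described below stayed among the first 5. DHN1 had 12 loci at r of 0.95 or more and P5CS had 10. Since they are the highest of so many, these r describe a choice and carry no test.

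The locus most like DHN1 was Sobic.003G356800 (chromosome 3, 67502612 to 67503880, r = 0.98), which had 11.1, 22.1, 17.1 and 19.4 FPKM along the stages and 44.2, 35.5 and 33.3 FPKM at D1, D2 and D3. Its 7 columns had the same order as those of DHN1. Next came Sobic.002G245300 (chromosome 2, 63378456 to 63381082, r = 0.98), with 0.523, 6.07, 1.65 and 1.91 FPKM along the stages and 9.98, 14.3 and 7.42 FPKM at D1, D2 and D3. Its highest drought column was D2 and not D1. The locus most like P5CS was Sobic.001G471000 (chromosome 1, 74372072 to 74377608, r = 0.98), with 36.6, 37.97, 52.1 and 48.04 FPKM along the stages and 66.8, 93.99 and 44.5 FPKM at D1, D2 and D3. Sobic.004G242500 (chromosome 4, 59071702 to 59076681, r = 0.97) had 6.69, 7.35, 8.69 and 6.61 FPKM along the stages and 9.84, 17.9 and 8.49 FPKM at D1, D2 and D3. All of these have a smaller range than the gene they resemble. DHN1 and P5CS themselves had an r of 0.66 with each other over the 7 columns, with 1629 loci more like DHN1 than P5CS was.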

How the data were processed

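Per the file headers, the authors deposited FPKM values in a pair of tables with separate locus models, 34755 loci for development and 32726 for drought. The labels of the 2 libraries in a group point to one shared column, which was therefore read as a pooled value. The submitters' processing notes list Cuffdiff and the tools HISAT2 2.0.5, Bowtie2 2.2.9 and cutadapt 1.8.1. The sources used here do not state their roles, the genome build, the filters or the strand setting of the counting. Per the labels' protocols, total RNA was extracted with trizol and the library kit kept strand. Column sums ran from 647966 to 720661 FPKM, and 16051 to 17265 loci were at 1 FPKM or more. Fragment totals are unknown, so the precision of a value is unknown as well.

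Differences, ranks and call counts were computed within each table with Python 3.11.15, pandas 2.3.3 and numpy 2.4.6. The calling was run on simulated data with planted changes larger than the threshold. Such a run checks the computation alone and does not address the spread between libraries. The alternatives were other pseudocounts, filters and scalings. The members, lists and rules were chosen with earlier results of these data known. Patterns over 3 or 4 columns were not among the planned comparisons and match the courses that the genes showed. Apart from both genes, the loci named are the 2 most like each gene by the stated measure. Lists of dehydrin, proline and abscisic acid genes by product name could not be formed, since 0 IDs matched a name.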

Additional observations from a re-analysis of the deposited data

How the results depend on the processing

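The 14 differences of DHN1 and P5CS were recomputed under 6 other pseudocounts and scalings, of which the common scaling over 7 columns was chosen after seeing the data. Of these 84 values, 83 kept their direction and their side of the call threshold. The largest shift of a median difference under a scaling was -0.14 log2 units. No difference as reported lay that close to the threshold, so the scalings could hardly change a call. The 2 alternative filters on low values cannot move a gene's own difference and are no check of it. The exception was DHN1 in soft dough against milky stage, at 0.93 with a pseudocount of 5, which shrinks every difference by construction. The pseudocount moved DHN1 most where floral initiation enters: booting against floral initiation ran from 3.90 to 6.94 and soft dough against floral initiation from 1.98 to 4.75. In the drought table, D3 against D1 ran from -1.95 to -1.89 for DHN1 and from -1.44 to -1.35 for P5CS, and D2 against D1 from 1.32 to 1.44 for P5CS. With columns centred within each table, 0 of the 5 loci most like DHN1 and 1 of the 5 most like P5CS were again among the 5, so the named loci depend on the measure. Summing over several loci of a gene was not run, since each gene had 1 locus per table. No paired analysis was possible because each group has 1 pooled column, and for the same reason no replicate could be left out. A pooled value cannot show whether both libraries of D2 carry the high P5CS value.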
